A study of Mus musculus with 40 samples.

Results

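The genes of the circadian output arm, which encode the REV-ERB receptors (Nr1d1 and Nr1d2), the ROR receptors (Rora and Rorb), the PAR-bZIP activators (Dbp, Tef and Hlf) and their antagonist NFIL3 (Nfil3), were examined for binding of the corepressors SMRT and NCoR and of the histone deacetylase HDAC3 in mouse liver. Peaks were taken as belonging to a locus when their centre lay inside 1 of these 8 genes or within 50 kb of it, by the GENCODE annotation of mm10. This gave 146 of the 60254 peaks in the lists: 80 of 35138 NCoR peaks, 28 of 10654 SMRT peaks and 38 of 14462 HDAC3 peaks. NCoR peaks were divided by the partners whose peak centre lay within 200 bp, so that a shared site is an NCoR peak with both SMRT and HDAC3.

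The series holds 40 chromatin libraries in 18 groups, and the 3 lists stand on 9 of them, besides the input they were called against. Livers came from male C57BL/6 mice homozygous for a floxed Bcl6 allele (Bcl6 fl/fl) without Cre, which keep BCL6 and serve as the wild-type controls, fed chow ad libitum. Each list was called on 3 livers pooled against input chromatin, and it gives positions without heights, so no value per liver, no error between animals and no test could be given. All counts describe 1 list for each factor, and shares carry exact binomial (Clopper-Pearson) intervals at 95% that cover counting error only. The animals' age and the clock time of harvest are not given in the sources used here. Since most of the 8 genes are expressed rhythmically in liver, the lists show an unstated phase of the day. The libraries were made from whole liver, and the peak lists hold no expression values with which to check its cell types.

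REV-ERBα and REV-ERBβ are nuclear receptors that bind heme and repress transcription, mainly through NCoR and HDAC3, at ROR response elements (ROREs). RORα and RORβ activate through the same elements, and the balance of both families drives rhythms of Arntl and Nfil3. DBP, TEF and HLF are basic leucine zipper factors with a proline and acidic amino acid-rich domain that activate genes through D-boxes, while NFIL3 (E4BP4) represses from D-boxes. Nr1d1 and Dbp themselves are classical targets of CLOCK and BMAL1, which bind E-boxes with the letters CACGTG.

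The sequences at the sites on which the comparisons turn are printed first, 5′ to 3′ on the strand of the gene, from the RefSeq GRCm38.p6 genome, whose chromosomes are those of mm10. Each name gives the gene and the distance in bp of the peak centre from its nearest transcription start site (TSS), negative when upstream, and capitals mark motif matches. The first set holds the shared site nearest to a TSS of each gene that had one assigned to it, showing what the 3 factors occupied together closest to the start. They lie at chr11:98783275-98783474 (minus strand), chr9:69291250-69291449 (plus), chr15:81822732-81822931 (plus), chr11:90388183-90388382 (minus) and chr13:52974857-52975056 (minus).
Nr1d1 -8041: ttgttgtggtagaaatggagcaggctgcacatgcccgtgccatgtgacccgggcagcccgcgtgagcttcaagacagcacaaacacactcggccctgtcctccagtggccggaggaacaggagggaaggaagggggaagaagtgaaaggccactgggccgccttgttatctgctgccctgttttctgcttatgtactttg
Rora +1667: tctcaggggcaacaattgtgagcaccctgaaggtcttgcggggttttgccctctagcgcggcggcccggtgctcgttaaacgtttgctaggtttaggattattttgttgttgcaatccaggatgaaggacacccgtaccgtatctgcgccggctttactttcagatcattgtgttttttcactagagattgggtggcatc
Tef +11417: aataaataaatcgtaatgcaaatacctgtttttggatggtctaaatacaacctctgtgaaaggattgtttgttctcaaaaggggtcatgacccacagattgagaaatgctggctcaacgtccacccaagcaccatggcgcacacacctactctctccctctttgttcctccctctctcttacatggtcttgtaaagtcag
Hlf +2613: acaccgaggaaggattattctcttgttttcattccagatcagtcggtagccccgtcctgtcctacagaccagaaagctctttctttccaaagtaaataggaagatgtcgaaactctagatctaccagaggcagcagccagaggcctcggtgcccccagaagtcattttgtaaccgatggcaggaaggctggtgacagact
Nfil3 +6117: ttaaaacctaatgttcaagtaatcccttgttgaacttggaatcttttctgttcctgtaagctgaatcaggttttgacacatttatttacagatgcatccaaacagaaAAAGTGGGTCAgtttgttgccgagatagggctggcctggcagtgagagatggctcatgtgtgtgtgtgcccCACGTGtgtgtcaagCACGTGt
Of these 5 sites, the one in Nfil3 held motif matches, namely AAAGTGGGTCA, a RORE, followed by 2 E-boxes.

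The second set holds the remaining shared sites assigned to a member with a clock motif in the central 200 bp, all of them E-boxes, at chr9:69230006-69230205 (plus), chr9:68883812-68884011 (plus) and chr11:90363911-90364110 (minus). The first of them also held TTGTGCAA, a C/EBP element.
Rora -59577: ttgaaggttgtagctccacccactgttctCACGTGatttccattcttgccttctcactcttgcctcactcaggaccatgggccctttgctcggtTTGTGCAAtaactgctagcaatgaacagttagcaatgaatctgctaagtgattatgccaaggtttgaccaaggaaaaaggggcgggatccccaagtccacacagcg
Rora +230125: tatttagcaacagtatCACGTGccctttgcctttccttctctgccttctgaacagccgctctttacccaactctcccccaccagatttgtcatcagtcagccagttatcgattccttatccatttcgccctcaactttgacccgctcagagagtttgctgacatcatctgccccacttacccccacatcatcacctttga
Hlf +26885: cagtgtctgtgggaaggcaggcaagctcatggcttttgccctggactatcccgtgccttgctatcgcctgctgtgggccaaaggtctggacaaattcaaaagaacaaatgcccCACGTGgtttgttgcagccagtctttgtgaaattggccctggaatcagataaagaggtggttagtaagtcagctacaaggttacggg
A further set was chosen after the values were seen, for the 2 genes of the set best known as E-box targets, and shows the NCoR peaks without partners inside them that held an E-box, picked for that match, at chr11:98773740-98773939 (minus) and chr7:45707722-45707921 (plus). The Nr1d1 site, in its first intron, held 2 E-boxes and the Dbp site held 1. The other NCoR peaks without partners at Nr1d1 itself, over its TSS and 2176 bp downstream, held none of the motifs searched.
Nr1d1 +1494: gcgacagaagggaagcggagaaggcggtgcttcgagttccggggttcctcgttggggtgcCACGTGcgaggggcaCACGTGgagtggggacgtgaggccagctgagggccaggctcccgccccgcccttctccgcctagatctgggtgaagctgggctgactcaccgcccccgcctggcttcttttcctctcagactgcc
Dbp +2537: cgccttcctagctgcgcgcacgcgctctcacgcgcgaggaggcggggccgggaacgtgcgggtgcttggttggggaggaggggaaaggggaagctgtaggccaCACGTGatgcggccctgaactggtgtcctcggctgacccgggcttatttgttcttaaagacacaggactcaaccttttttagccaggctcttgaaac

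NCoR was present at 7 of the 8 loci and absent from the Rorb window, where none of the lists had a peak. Over all 21938 protein-coding genes, 72.3% had an NCoR peak in the gene or within 50 kb. A shared site fell in 5 of the 8 windows (Nr1d1, Rora, Tef, Hlf and Nfil3), against 39.2% of protein-coding genes. The same 5 genes had the nearest TSS of at least 1 shared site, a property of 20.9% of protein-coding genes, and 7 had the nearest TSS of an NCoR peak, against 49.1%. At 4 of the 8 genes NCoR lay at a promoter of their own (a TSS with the 1000 bp before it and 100 bp after it), and 16.9% of protein-coding genes had such a peak. Together the 8 windows, 1855 kb in all, held 4.31 NCoR peaks and 1.24 shared sites per 100 kb, beside 1.84 and 0.446 over the windows of all protein-coding genes. With 8 genes, chosen with results of these lists known, these shares are a description of the set.

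**Figure D1:**
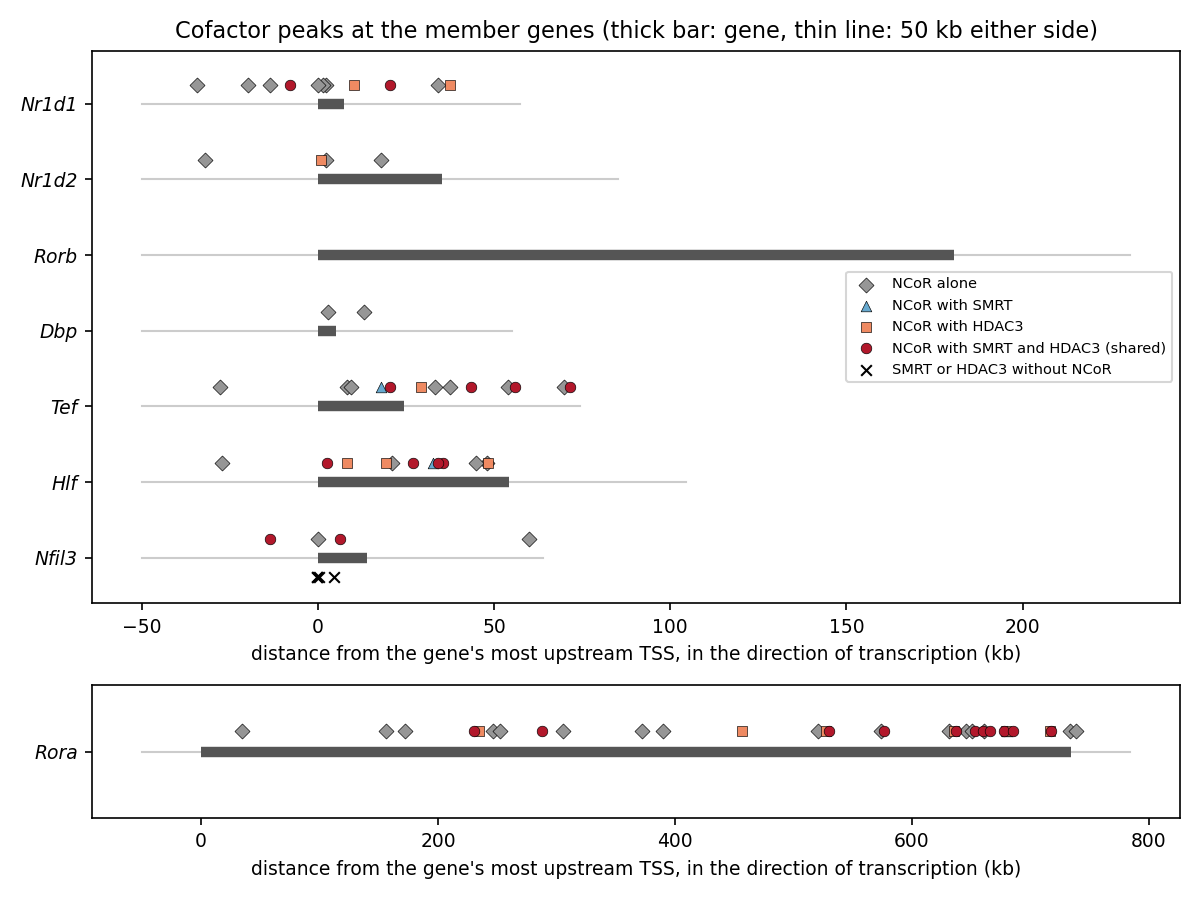
Each symbol is a peak centre by its distance in kb from the most upstream TSS of the gene, with NCoR peaks above the gene line by class and SMRT or HDAC3 peaks without NCoR below it. Thick bars are genes and thin lines the 50 kb on either side. Shared sites lay in introns or outside genes except 1 in the 5′ UTR of Tob2 in the Tef window, Rorb had no symbol, and Nfil3 alone had peaks below the line.

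The 80 NCoR peaks comprised 23 shared sites (28.8%, 95% interval 19.2 to 40%), 13 peaks with HDAC3 (16.2%, 8.95 to 26.2%), 3 with SMRT (3.75%, 0.78 to 10.6%) and 41 alone (51.2%, 39.8 to 62.6%). Among all NCoR peaks the shares were 24.9%, 14.8%, 4.16% and 56.1%, each inside the interval of the loci. Rora held 34 of the 80 peaks, and over the other loci 12 of 46 peaks were shared (26.1%, 14.3 to 41.1%). The peaks whose nearest TSS was that of a member gene numbered 60, of which 18 were shared, and the other 20 were nearest to a neighbouring gene, with 5 shared. Partner peaks sat close to each other. SMRT and NCoR centres were a median of 29.5 bp apart (26 pairs), and HDAC3 and NCoR centres 21 bp apart (36 pairs), beside 24 and 23 bp over all pairs within 200 bp.

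By location, the shared sites at these loci were intronic in 19 cases, intergenic in 3 and in an exon in 1, and none of the 23 lay at a promoter. Of the 41 peaks of NCoR alone, 9 were at a promoter (22.0%). Genome-wide, 8.19% of shared sites and 15.1% of NCoR peaks alone were at promoters. The 23 shared sites had a median GC content of 49.0% over their central 200 bp (34.5 to 62.5%), with 47.5% for all shared sites.

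**Figure D2:**
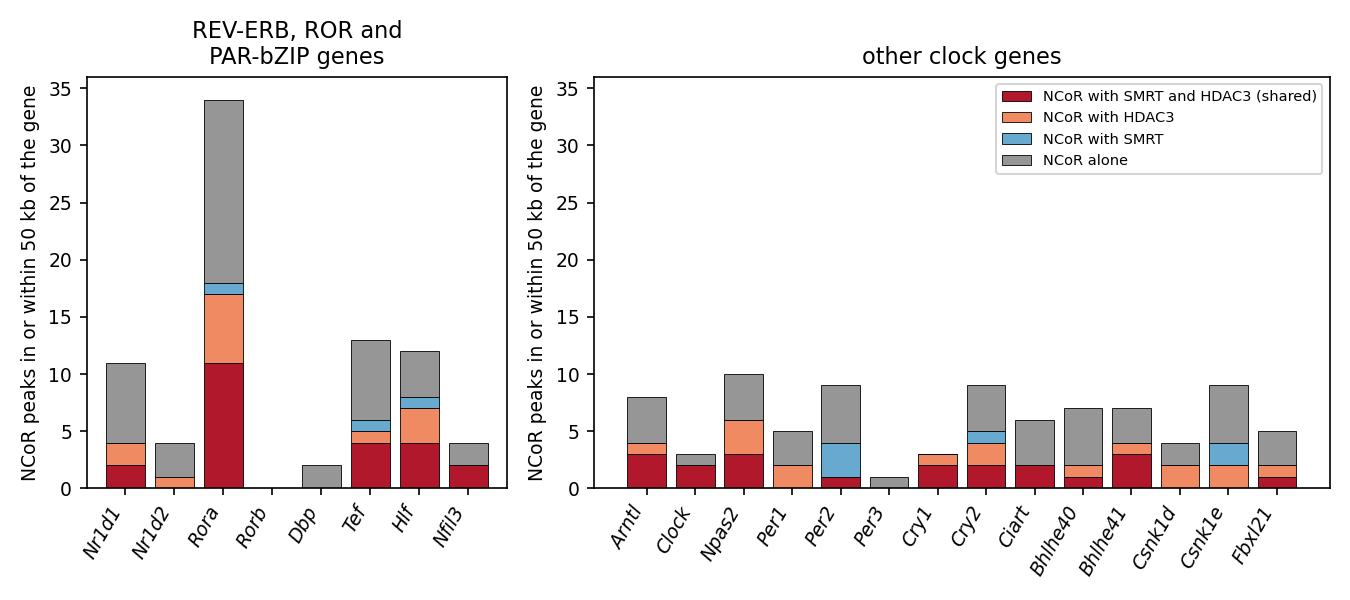
Stacked bars give the number of NCoR peaks in or within 50 kb of each gene by partner class, for the 8 members (left) and 14 other clock genes (right), on the same scale from 0. Rora reached 34 peaks with 11 shared, Rorb had 0, and none of the other clock genes exceeded 10.

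Nr1d1, the gene of REV-ERBα, lies at chr11:98767932-98775333 on the minus strand. It had 11 NCoR peaks, a number reached by 5.19% of protein-coding genes, with a density of 10.24 per 100 kb of window, reached by 1.3%. Of these, 5 were nearest to the Nr1d1 TSS. One covered the start itself (chr11:98775227-98775455, centre 8 bp upstream), and others lay 1494 and 2176 bp downstream in the first intron, all without a partner. The single shared site of Nr1d1 was upstream and intergenic (chr11:98783260-98783488), with the 3 centres within 6 bp of each other. A further peak, with HDAC3, lay 10344 bp downstream in the 3′ UTR of Thra. Thra, which encodes thyroid hormone receptor α and ends against Nr1d1 tail to tail, had the nearest TSS of 3 peaks, including the other shared site of the window, in its intron 13147 bp from its TSS. Thus the gene body and promoter of Nr1d1 had called peaks of NCoR only. The shared site lay upstream, and the nearest peak beyond the end of the gene was with HDAC3 and without SMRT. The lists hold no heights, so SMRT or HDAC3 binding too weak to be called cannot be told from absence.

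Nr1d2, the gene of REV-ERBβ (chr14:18204054-18239127, minus strand), had 4 NCoR peaks, a number reached by 39.1% of protein-coding genes, and no SMRT peak. Of its own 3 peaks, the one closest to the start was with HDAC3 and lay 764 bp downstream in the first intron (chr14:18238249-18238477), with the centres 3 bp apart. The others, at 2190 and 17855 bp, were of NCoR alone. The REV-ERB pair therefore differed in these lists, in that Nr1d1 had NCoR alone at its start and a shared site upstream, and Nr1d2 had NCoR with HDAC3 just inside the gene and no shared site.

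Rora (chr9:68653786-69388246, plus strand) is a long gene of 734 kb with an upstream and a downstream start, 636 kb apart, and it had the most peaks of the set. Its 34 NCoR peaks were reached by 0.0319% of protein-coding genes, its 11 shared sites by 0.0365%, its 12 SMRT peaks by 0.041% and its 17 HDAC3 peaks by 0.0501%. The window of 834 kb is long, and per 100 kb the NCoR peaks came to 4.07, a density reached by 23.9% of genes. The shared sites came to 1.32 per 100 kb, reached by 17.0%. The peaks were uneven along the gene. From the upstream TSS to the downstream TSS, 636 kb held 18 NCoR peaks with 4 shared (2.83 and 0.629 per 100 kb), and the last 98.6 kb, from the downstream TSS on, held 15 peaks with 7 shared (15.2 and 7.1 per 100 kb).

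The downstream TSS of Rora itself had an NCoR peak with HDAC3 (chr9:69289635-69289863, 67 bp from the start, with the HDAC3 centre 95 bp further on), whereas the upstream TSS had none, the nearest NCoR peak of the window being 34636 bp inside the gene. Of the 10 shared sites nearest to a Rora TSS, the 6 closest lay downstream of that start in the second intron of the long transcript. They were at chr9:69291235-69291463 (1667 bp), chr9:69306804-69307032 (17236 bp), chr9:69313390-69313618 (23822 bp), chr9:69319910-69320138 (30342 bp), chr9:69331771-69331999 (42203 bp) and chr9:69339287-69339515 (49719 bp). The seventh shared site of this stretch, in the sixth intron of Rora (chr9:69371411-69371639), was nearer to the TSS of Ice2, a subunit of the little elongation complex. Rorb (chr19:18930605-19111196, minus strand), whose protein is known mainly from brain and retina, had no peak over a window of 281 kb.

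**Figure D3:**
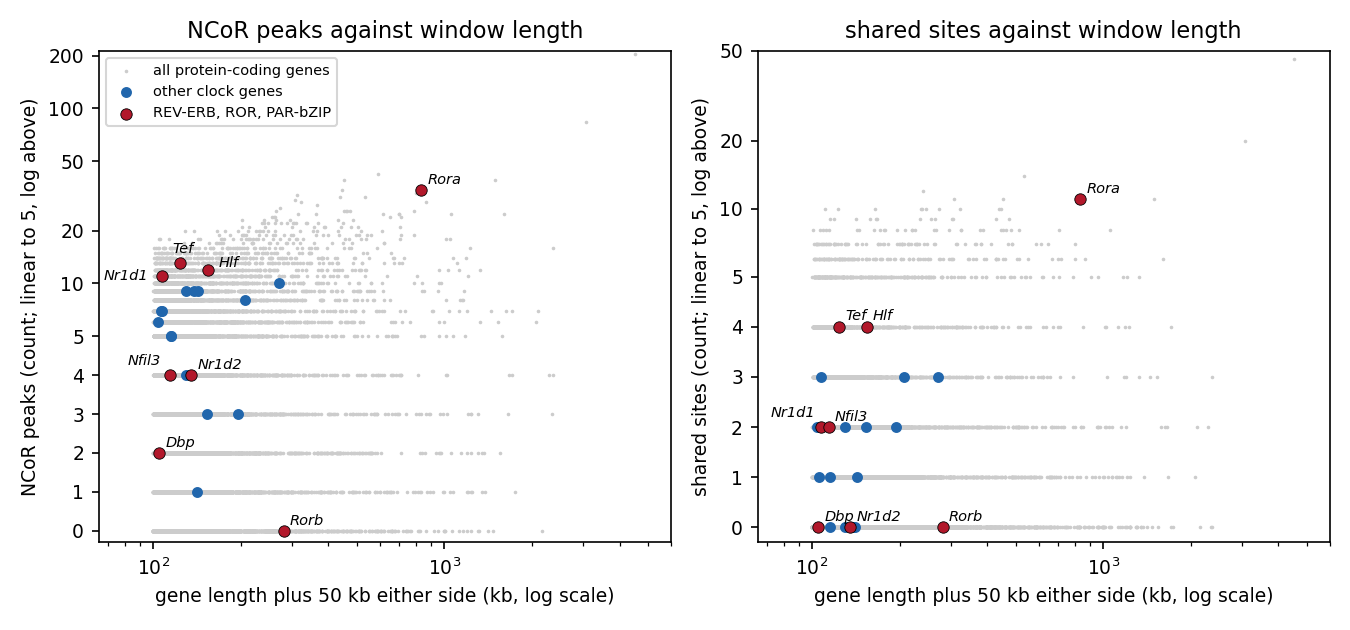
The number of NCoR peaks (left) and shared sites (right) in each protein-coding gene and its 50 kb flanks is plotted against the length of that window in kb (log axis), with the 8 members in red and the other clock genes in blue. Counts are linear to 5 and logarithmic above. Rora stood at 34 and 11 in a window of 834 kb, and Tef and Hlf each had 4 shared sites in windows of 124 and 154 kb.

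Dbp (chr7:45705088-45710203, plus strand) was the most sparsely occupied of the PAR-bZIP genes. It had 2 NCoR peaks in its window, which 59.3% of protein-coding genes reached, and no SMRT or HDAC3 peak. The only one nearest to a Dbp TSS was in the second intron (chr7:45707707-45707935, 2537 bp), without a partner and with the E-box printed above.

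Tef (chr15:81802421-81826863, plus strand) had 13 NCoR peaks, reached by 2.7% of genes, and 4 shared sites, reached by 5.07%. Its NCoR density, 10.45 per 100 kb, was the highest of the 8 genes and was reached by 1.14% of protein-coding genes. Tef itself had the nearest TSS of 6 peaks. Those next to its downstream start, at 647 bp upstream (chr15:81810653-81810881) and 441 bp downstream, were of NCoR alone. Further in, NCoR with SMRT was found at 9031 bp and the single shared site of Tef at 11417 bp (chr15:81822717-81822945, intron 3), where 54.0% of the central 200 bp was masked as repeat. NCoR with HDAC3 followed beyond the end of the gene, at 20114 bp, and a peak of NCoR alone lay 27757 bp upstream. Of the other shared sites in the window, 2 were nearest to Tob2, an antiproliferative factor, of which 1 lay in its 5′ UTR at 188 bp. The shared sites counted in the Tef window thus belonged mostly to its neighbours by distance.

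Hlf (chr11:90336536-90390895, minus strand) differed in that each of its 12 NCoR peaks was nearest to its own TSS, a number reached by 1.65% of protein-coding genes. All but 1 lay within the gene, and 7 HDAC3 and 5 SMRT peaks were there as well. Its 4 shared sites, reached by 2.3% of genes as nearest TSS, were in the first intron at 2613 bp (chr11:90388168-90388396) and in the second at 26885 bp (chr11:90363896-90364124), 34076 bp (chr11:90356705-90356933) and 35540 bp (chr11:90355241-90355469). No NCoR peak lay at the Hlf promoter. The exception outside the gene was an NCoR peak without partner 27210 bp upstream, with a GC content of 72.0% and both a RORE and an E-box in its central 200 bp. By shared sites nearest to its own TSS, Hlf (4) and Dbp (0) thus stood at opposite ends of the PAR-bZIP genes, with Tef (1) between them. The genes have the same order by length (Hlf 54.4 kb, Tef 24.4 kb and Dbp 5.12 kb), and these counts were not adjusted for it.

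Nfil3 (chr13:52967209-52981073, minus strand), known as a target of both REV-ERB and ROR, had 4 NCoR peaks, a number reached by 39.1% of protein-coding genes. It had as many SMRT peaks (reached by 7.38%) and HDAC3 peaks (12.7%). By nearest TSS at any distance, Nfil3 had 7 NCoR peaks, reached by 5.73% of genes, and 3 shared sites, reached by 4.33%. The 2 shared sites of the window, a number reached by 20.7%, lay in the first intron at 6117 bp (chr13:52974842-52975070) and 13640 bp upstream (chr13:52994599-52994827). In the intronic site the SMRT and HDAC3 centres lay 61 and 77 bp from that of NCoR, and in the upstream site 8 and 33 bp. The intronic site was the only shared site of the 23 with a RORE (4.35%, 0.11 to 21.9%), beside 1.75% of all shared sites.

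The start of Nfil3 was also where the 3 lists came apart. NCoR had a peak over the TSS (chr13:52980978-52981206, centre 19 bp upstream), with a GC content of 83.5%, the highest of the 80. SMRT (chr13:52981279-52981491) and HDAC3 (chr13:52981246-52981458) had peaks with centres 312 and 279 bp upstream, 33 bp apart from each other but 293 and 260 bp from NCoR, beyond the limit of 200 bp. With centres allowed 400 bp apart, the promoter peak of NCoR counted as shared. HDAC3 had a further peak without a partner 424 bp downstream of the start (chr13:52980543-52980755), and SMRT another at 4589 bp (chr13:52976378-52976590). All SMRT and HDAC3 peaks at the 8 loci that had no NCoR peak within 200 bp were these 4 at Nfil3, 2 of each factor. Over the whole lists, 3.35% of SMRT peaks had no partner and 0.901% had HDAC3 only, while 2.95% of HDAC3 peaks had no partner and 0.588% had SMRT only. The stretch of the promoter upstream of the annotated 5′ UTR, chr13:52981074-52981289 on the minus strand, was chosen after its values were seen and is shown for its base composition, and it held none of the motifs searched:
Nfil3 promoter: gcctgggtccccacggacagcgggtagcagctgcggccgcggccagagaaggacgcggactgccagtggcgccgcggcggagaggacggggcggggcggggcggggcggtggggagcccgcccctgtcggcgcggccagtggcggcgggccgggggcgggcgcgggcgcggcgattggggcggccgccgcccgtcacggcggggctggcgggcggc

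**Figure D4:**
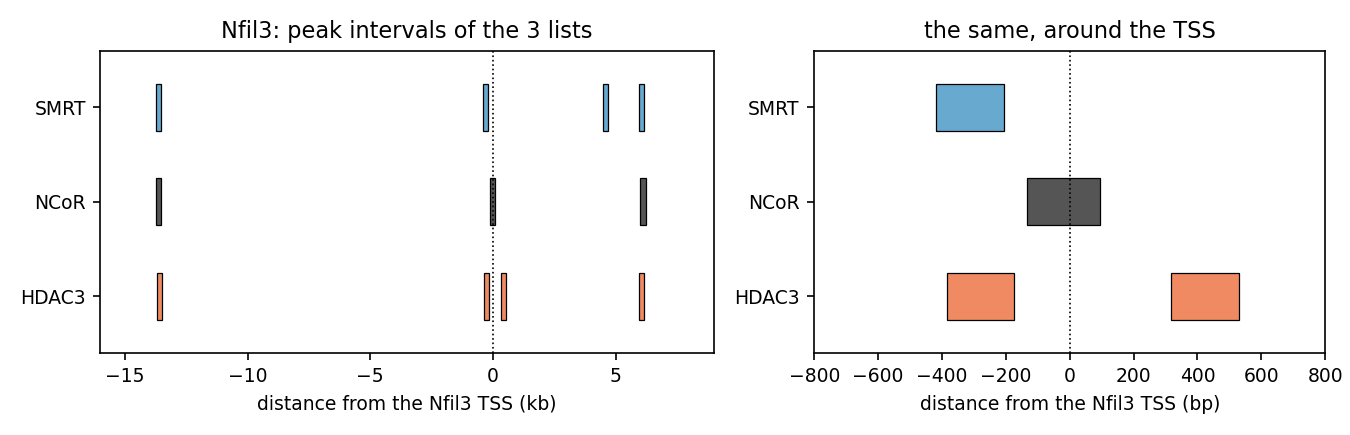
Bars are the peak intervals of SMRT, NCoR and HDAC3 by distance from the Nfil3 TSS (dotted line), in kb on the left and in bp around the start on the right; the NCoR peak 59826 bp downstream is outside the range. At the shared sites 13640 bp upstream and 6117 bp downstream the 3 rows line up, while at the start NCoR sat at 19 bp upstream and SMRT and HDAC3 at 312 and 279 bp upstream.

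Motifs were searched on both strands in the central 200 bp of the NCoR peaks. The E-box CACGTG was found in 8 of the 80 peaks (10%, 4.42 to 18.8%), beside 4.15% of all NCoR peaks and 2.51% of windows 2 kb to either side of them. The lower bound for the loci was just above the share of all NCoR peaks, and no test was made. The 8 peaks were spread over Nr1d1 (1), Rora (2), Dbp (1), Hlf (3) and Nfil3 (1), and 4 of them were shared sites. The RORE, an A/T-rich stretch in front of a GGTCA half-site, was in 3 peaks (3.75%, 0.78 to 10.6%) against 1.69% of all NCoR peaks and 0.351% of the flanking windows. These were the intronic Nfil3 site, the upstream Hlf peak and a peak of NCoR alone in an intron of Tob2. The repeat of 2 half-sites spaced by 2 bases, which binds a REV-ERB dimer, was in none of the 80 (up to 4.51%) and in 0.498% of all NCoR peaks.

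The D-box, searched as TTACGTAA or TTATGTAA, was in 1 of the 80 peaks (1.25%), an NCoR peak with HDAC3 in the first intron of Rora, against 1.99% of all. The liver elements were present at shares whose intervals held those of all NCoR peaks. The HNF4 half-site (CAAAGGTCA, CAAAGGCCA, CAAAGTTCA or CAAAGTCCA) was in 6.25% against 7.85%, the C/EBP element (TTGCGCAA, TTGTGCAA, TTACGCAA or TTATGCAA) in 7.5% against 5.51%, and the FOX element TGTTTAC in 6.25% against 7.74%. The BCL6/STAT palindrome (TTCCNGGAA, TTCCNAGAA, TTCTNGGAA or TTCTNAGAA) was in 1 peak, an NCoR peak alone in Hlf (1.25%), against 3.84%. The RORE, the half-site repeat and the HNF4 half-site share letters, so that 1 stretch could match more than 1 of them. Over the 250 bases before the RefSeq starts, CACGTG was in both Tef promoters and in none of the other 8 entries for the members, and 6.02% of the 32851 promoters in the table held it. The upstream Tef entry lay wholly in sequence annotated as untranslated exon, as did 159 bases of the Dbp entry. The downstream start of Rora, where NCoR had a peak, had no entry.

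**Figure D5:**
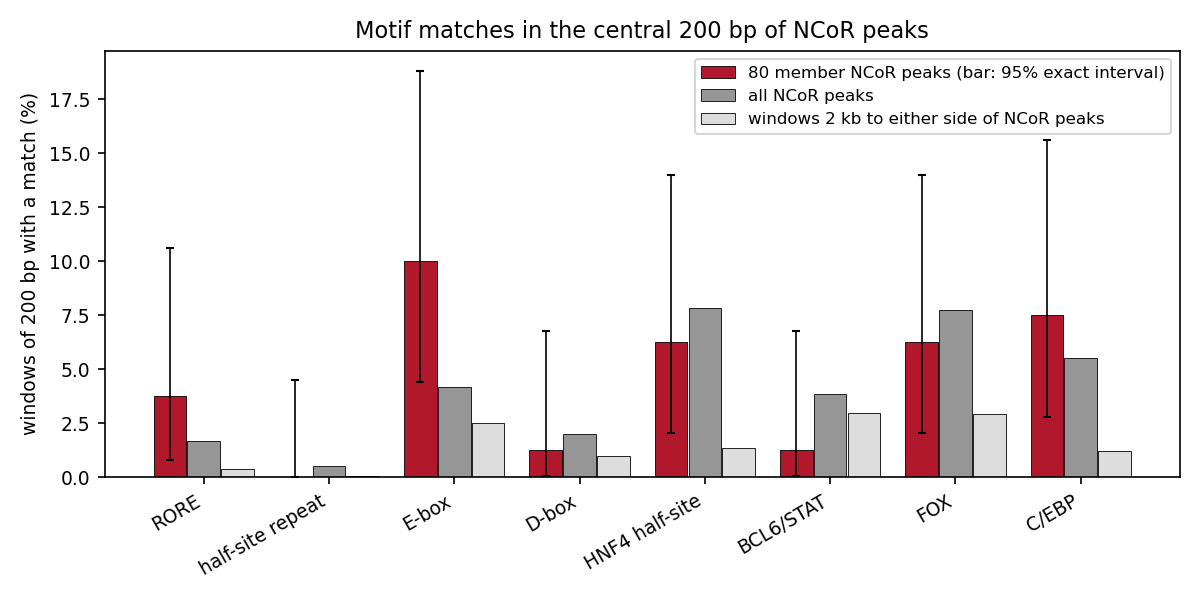
Bars give the percent of 200 bp windows with a match to each motif in the 80 NCoR peaks at the loci (red, with exact 95% binomial intervals), all NCoR peaks (dark grey) and windows 2 kb to either side of all NCoR peaks (light grey). The E-box stood at 10% against 4.15% and 2.51%, and of the 8 red intervals all but that of the E-box contained the share of all NCoR peaks.

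The 14 other clock genes had NCoR in each window and a shared site in 10 of 14, against 72.3% and 39.2% of protein-coding genes. Their medians were 6.5 NCoR peaks and 1.5 shared sites, beside 7.5 and 2 for the 8 members and 2 and 0 for all protein-coding genes. These counts were not adjusted for window length. Per 100 kb of window, the median of NCoR peaks was higher for the other clock genes (4.34) than for the members (3.79). That of shared sites was lower (0.983 against 1.54). All protein-coding genes had medians of 1.76 and 0 per 100 kb. Arntl, which encodes BMAL1, had 3 shared sites among 8 NCoR peaks. Npas2, the CLOCK paralogue, had 3 among 10, and Bhlhe41, a repressor of E-box genes, 3 among 7. Clock, Cry1, Cry2 and Ciart had 2 each. Bhlhe40 had 7 NCoR peaks with 1 shared site in its window. By nearest TSS at any distance it had 19 NCoR peaks, reached by 0.401% of protein-coding genes. Its shared sites by that measure were 6, reached by 0.675%. Both numbers were above those of every member but Rora. Of the period genes, which encode the partners of the cryptochromes, Per2 had 9 NCoR peaks with 1 shared site and 3 with SMRT, whereas Per1 (5 peaks) and Per3 (1 peak) had no shared site. Csnk1d and Csnk1e, the casein kinases that phosphorylate the period proteins, had none either. An NCoR peak at the gene's own promoter was found at 6 of the 14 genes, against 16.9% of protein-coding genes. Arntl, Clock and Npas2, the activators of the core loop, thus had shared sites within 50 kb, as did Nr1d1, Rora, Tef, Hlf and Nfil3, while Nr1d2, Rorb, Dbp, Per1 and Per3 had none.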

How the data were processed

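The deposited lists give the chromosome, start and end of SMRT, NCoR and HDAC3 peaks as genomic positions with no count, score or height. According to the study's methods and the submitters' processing notes, the authors aligned single-end reads to mm10 with Bowtie, kept uniquely mapped reads, called peaks with HOMER on the 3 pooled livers of a group against input, and filtered them by DESeq2 on the separate libraries, so repeats are underrepresented and sites not enriched over input across the livers were dropped. All intervals of a list have 1 length (212 bp for SMRT and HDAC3, 228 bp for NCoR), so peak width carries no information.

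From these positions, centres were compared at 200 bp, peaks were assigned to the nearest TSS of a protein-coding transcript in GENCODE M21 (basic set, GRCm38), and windows of 50 kb were added to each gene, with every protein-coding gene treated alike. The class, assignment and motif steps were tested on simulated data. Python 3.11.15, scipy 1.17.1 and pysam 0.24.0 were used. The total reads of each library are not given in the sources used here, so the precision of the lists is unknown and the intervals cover counting error only. The 8 genes, the other clock genes and the motifs were chosen with earlier results of these data known. All 8 genes were described. Other genes were named where they had the nearest TSS of a shared site in a member window, or as other clock genes, some of which are not reported here. Positions were printed for shared sites assigned to a member, up to the 6 nearest to a TSS, and for peaks near the starts. Alternatives were centre distances of 100 and 400 bp, windows of 10 and 100 kb, the nearest TSS of any gene type, a promoter of 5 kb either side, and motifs in the central 100 bp. The 31 libraries of the other groups, which include the input libraries, were not read here, though the authors called the lists against input.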

Additional observations from a re-analysis of the deposited data

How the results depend on the processing

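No paired analysis was possible because the 3 livers behind each list were pooled and no result comes from a test. A stricter peak threshold and leaving out a liver were not run, since the lists hold neither scores nor separate livers. Of 46 recomputed values of the whole set, 43 stayed within 1.5 times the main count or inside its interval, and shared sites made up 27.4 to 30% of the NCoR peaks under other centre distances and windows. With the promoter widened to 5 kb either side of a TSS, the genes with an NCoR peak at their own promoter rose from 4 to 7, Rorb being the exception. The share of all protein-coding genes at that width was not computed, so the 7 has no value to be compared with. In the central 100 bp, shared sites with an E-box fell from 4 to 1 and those with an HNF4 half-site from 2 to 0, most of these matches lying in the outer parts of the window. Of 112 recomputed values for single genes, 12 moved by more than 1.5 times, each with another window. With 10 kb, Nr1d1 had 5 NCoR peaks with 1 shared site, Tef 6 with 1 and Nfil3 2 with 1. With 100 kb, Dbp had 7 NCoR peaks with 2 shared sites, Hlf 7 shared sites and Nfil3 8 NCoR peaks. The absence of a shared site at Dbp thus holds for 50 kb and not for 100 kb. The shared sites whose nearest TSS was that of Dbp stayed at 0 with 100 kb, so those added were nearest to other genes.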
